A study of Mus musculus with 12 samples.

Results

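Genes that mark or serve regulatory T cells, or that encode receptors able to restrain T cells, were followed in mandibular lymph nodes of mice lacking the microRNA miR-451a and of wild-type mice. The 10 genes were chosen as a list by symbol and made up 10 of the 56941 Ensembl gene IDs in the count table. They were Foxp3, Ctla4, Il2ra, Ikzf2, Il10, Tnfrsf18, Icos, Tigit, Lag3 and Pdcd1. Each symbol belonged to 1 ID, and all 10 passed the filter on low counts that left 20034 genes for testing.

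Regulatory T cells are CD4+ T cells that hold back other immune cells and limit contact hypersensitivity. The transcription factor Foxp3 sets their identity, and many carry a high level of the interleukin-2 receptor alpha chain and of the receptor CTLA-4. Receptors such as PD-1, LAG-3 and TIGIT, called checkpoints, lower T cell activity when they meet their ligands on other cells. None of these receptors is restricted to regulatory T cells, because recently activated and follicular helper T cells also carry several of them.

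Challenged knockout nodes (KO_DTH) and challenged wild-type nodes (WT_DTH) were taken on day 10, and sensitized knockout nodes (KO_se) and sensitized wild-type nodes (WT_se) on day 9. Every mouse, controls included, had received 100 µl of 0.5% 1-fluoro-2,4-dinitrobenzene (DNFB), a contact allergen, on the shaved abdomen on days 0, 1 and 2. The challenged mice had in addition received 20 µl of 1% DNFB on the left ear on day 9, 24 hours before harvest. Challenge and harvest day therefore cannot be told apart. No nodes of mice without DNFB were used here. The comparisons address what absence of miR-451a does to the lymph node response to a contact allergen. Each group held 3 libraries of total RNA. Whether a library is 1 animal is not stated in the labels. The p-values therefore speak of the spread among libraries, which may be technical in part. Each group held libraries of both sexes, as given below, so its 3 libraries were not all from 1 animal. Mir451a itself was not analysed here, and the knockout label was not checked against it.

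Libraries held 36946696 to 58405576 counts. Levels are given as CPM, counts scaled to a common library size. The summed level of 12 T cell genes lay between 1517 and 3044 CPM and that of 8 B cell genes between 1478 and 2925 CPM, so both main cell types of a lymph node were represented in every library. Salivary gland genes, which belong to the gland beside the node, took 4.13 to 9.30% of counts in KO_DTH, 2.04 to 3.29% in WT_DTH, 2.74 to 6.64% in KO_se and 6.82 to 14.2% in WT_se libraries. By Xist and Ddx3y, 2 of 3 libraries were female in KO_DTH and in WT_DTH, against 1 of 3 in KO_se and in WT_se.

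The microRNA is shown first, because its seed is what the genes were searched for. MicroRNAs pair through the seed, positions 2 to 8 from the 5′ end, with sites that lie mostly in 3′ untranslated regions. The mature sequence, from RefSeq on GRCm38.p6 at chr11:78073186-78073207 on the plus strand, has the seed in capitals.
mmu-miR-451a: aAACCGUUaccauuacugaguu
Of the 10 genes, only Ikzf2 had letters pairing with positions 2 to 8 in an annotated 3′ untranslated region. Ikzf2 encodes Helios, an Ikaros family factor found in many regulatory T cells. The match is printed 5′ to 3′ on the transcribed strand of the gene, on chromosome 1, with the 7 pairing letters in capitals.
Ikzf2 site: tgtgatctaaaAACGGTTtgacagtggag
Among 21193 genes with an annotated 3′ untranslated region, 467 or 2.2% held such a 7-letter match, AACGGTT. The Ikzf2 region searched was 7554 bases at its longest, the longest among the 10 genes, and the other 9 regions spanned 81 to 3411 bases. A match is a description of the letters only. Ikzf2 levels in both genotypes are given below with those of the other genes.

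Levels of different genes were compared as CPM per kilobase of exon. Ctla4, the receptor that competes with CD28 for CD80 and CD86, was highest at 83.7 ± 15.9 CPM per kilobase (SD over 12 libraries), and Icos, a costimulatory receptor of the CD28 family, followed at 50.3 ± 9.5. Tnfrsf18, which encodes the receptor GITR, stood at 22.8 ± 2.94 and Tigit at 21.9 ± 3.13. Tnfrsf18 was above Tigit in 8 of 12 libraries, so their order did not hold beyond the spread. Foxp3 stood at 10.8 ± 1.36 and Il2ra, the interleukin-2 receptor alpha chain, at 8.57 ± 2.07. The steps from Ctla4 to Icos, from Icos to Tnfrsf18, from Tigit to Foxp3 and from Foxp3 to Il2ra each held in 12 of 12 libraries. Below them lay Pdcd1, which encodes PD-1, at 5.71 ± 1.39, Lag3, whose product binds MHC class II, at 4.63 ± 0.87, Ikzf2 at 4.00 ± 0.78 and the cytokine gene Il10 at 3.64 ± 0.92. Il2ra lay above Pdcd1 in 10 of 12 libraries, and neighbours among these lowest genes kept their order in 8 or 9 of 12. Il10 had the fewest counts, 127 to 378 per library.

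**Figure D1:**
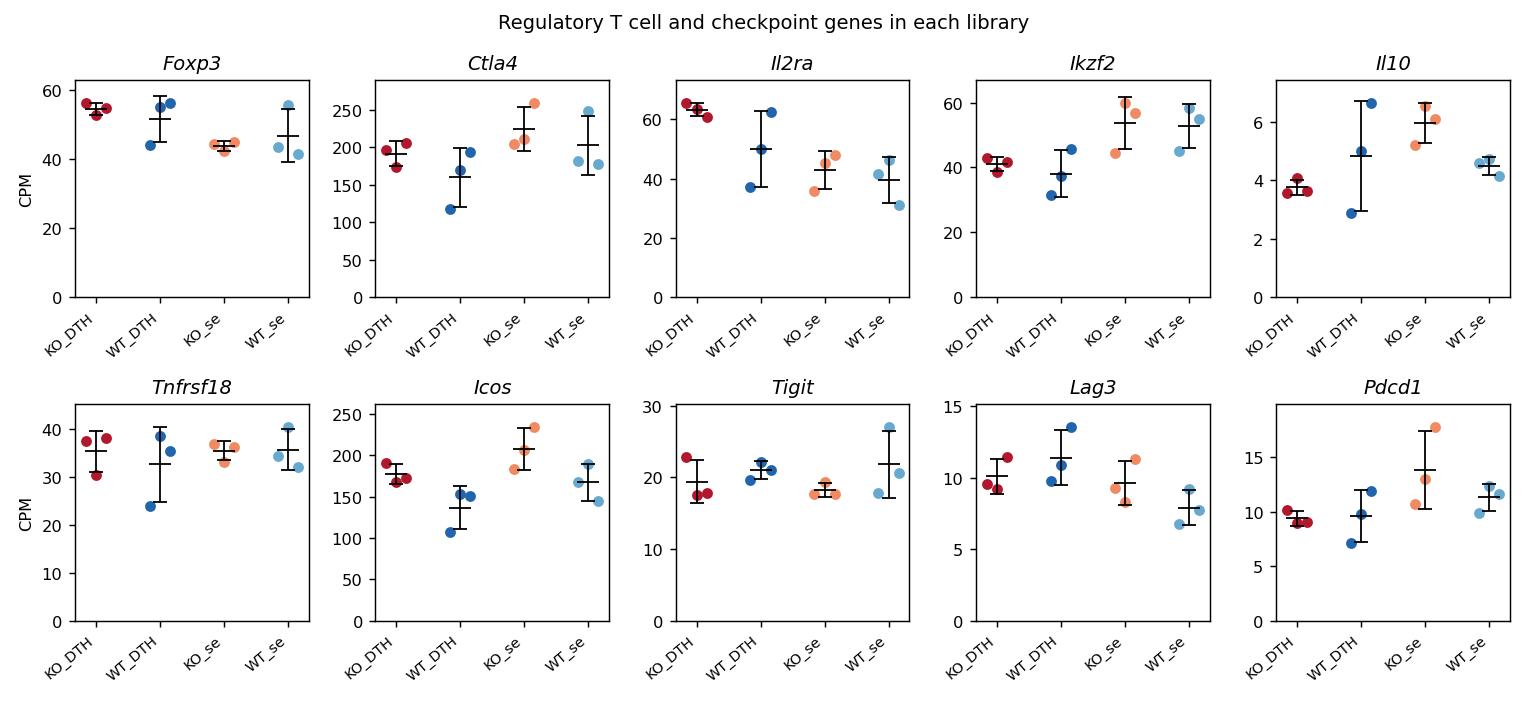
Level of each of the 10 genes in CPM (vertical axis, from 0, its own scale in each panel) in the 12 libraries by group; points are libraries and bars the mean ± SD of 3 libraries. The KO_DTH libraries lie close together for Foxp3 (52.8 to 56.2 CPM) and Il2ra (60.9 to 65.4 CPM), and the lowest WT_DTH point in each panel is replicate 1.

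Loss of miR-451a left Foxp3 within the spread of the wild type in both states. Foxp3 had 56.2, 52.8 and 54.8 CPM in KO_DTH, against 44.1, 55.0 and 56.2 CPM in WT_DTH libraries. In sensitized nodes it had 44.4, 42.3 and 44.9 CPM in KO_se, against 43.4, 55.7 and 41.5 CPM in WT_se libraries. The knockout and wild-type ranges overlapped in both states. The log2 fold change, knockout over wild type, was 0.08 ± 0.12 (SE) after challenge and -0.10 ± 0.12 before it, with adjusted p of 0.860 and 0.697 in edgeR's quasi-likelihood test. Averaged over states it was -0.01, with a 95% interval of -0.19 to 0.17.

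None of the 10 genes passed the threshold for genotype. The count was 0 in KO_DTH against WT_DTH, where 0.599% of all tested genes passed, 0 in KO_se against WT_se, where 5.17% passed, and 0 for genotype averaged over states, where 4.74% passed. At an unadjusted p under 0.05 the edgeR test held 1 of the 10 genes, Icos, in each of the 3 comparisons. Of all 20034 tested genes it held 2832, 4406 and 3976, in that order. The DESeq2 Wald test called 0, 0 and 1 of the 10 genes at an adjusted p under 0.05, and that gene was Icos. Of all 20034 genes the Wald test called 932, 2280 and 1964. The median log2 fold change of the 10 genes was 0.09 after challenge and 0.13 before it, beside 0.01 and -0.01 over all tested genes.

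Icos came nearest to the threshold. Its product binds ICOS ligand and is carried by activated, follicular helper and regulatory T cells. Icos had 191, 168 and 173 CPM in KO_DTH, against 107, 153 and 151 CPM in WT_DTH libraries. Every KO_DTH library lay above every WT_DTH library, a pattern shown by 1 of the 10 genes and, in either direction, by 18.8% of all tested genes. In sensitized nodes Icos had 183, 207 and 234 CPM in KO_se, against 168, 189 and 145 CPM in WT_se libraries, and here the ranges overlapped. The log2 fold change was 0.37 ± 0.14 after challenge (adjusted p = 0.241), 0.31 ± 0.14 before it (adjusted p = 0.215) and 0.34 ± 0.10 averaged over states (adjusted p = 0.0691). The DESeq2 Wald test gave the averaged difference an adjusted p of 0.0119. Without WT_DTH replicate 1, the lowest Icos library, the difference after challenge was 0.19 ± 0.13 (adjusted p = 0.653) and the averaged one 0.26 ± 0.08 (adjusted p = 0.141).

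Il10, which encodes an anti-inflammatory cytokine made by regulatory and other T cells, B cells and macrophages, had 5.20, 6.56 and 6.11 CPM in KO_se, against 4.61, 4.74 and 4.14 CPM in WT_se libraries. All KO_se libraries were above all WT_se libraries. Il10 was the only gene of the 10 with groups apart in that comparison, where 28.0% of all tested genes had groups apart in either direction. The log2 fold change was 0.41 ± 0.25 (adjusted p = 0.390). In challenged nodes Il10 had 3.56, 4.07 and 3.64 CPM in KO_DTH, against 2.89, 5.01 and 6.64 CPM in WT_DTH libraries, which spanned the knockout values. The log2 fold change there was -0.37 ± 0.25 (adjusted p = 0.582).

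Ikzf2, the gene with the seed match, had 42.8, 38.7 and 41.7 CPM in KO_DTH, against 31.3, 37.3 and 45.7 CPM in WT_DTH libraries. It had 44.6, 59.8 and 56.8 CPM in KO_se, against 45.0, 58.2 and 55.0 CPM in WT_se libraries. The knockout and wild-type ranges overlapped in both states. The log2 fold change averaged over states was 0.07 ± 0.10, with a 95% interval of -0.16 to 0.29 (adjusted p = 0.798). For the other 6 genes the averaged log2 fold changes ran from -0.19 ± 0.11 for Tigit to 0.23 ± 0.13 for Il2ra, and the adjusted p of those 6 was 0.350 or more.

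After challenge, Il2ra rose and Ikzf2 fell when averaged over both genotypes. These were 2 of the 10 genes in a comparison where 21.5% of all tested genes passed. Il2ra had 65.4, 63.6 and 60.9 CPM in KO_DTH, against 35.7, 45.3 and 47.8 CPM in KO_se libraries. In wild type it had 37.0, 49.98 and 62.6 CPM in WT_DTH, against 41.6, 46.3 and 31.0 CPM in WT_se libraries. The knockout libraries separated by state and the wild-type libraries did not. The averaged log2 fold change of Il2ra, challenged over sensitized, was 0.45 ± 0.13 (adjusted p = 0.0251), and that of Ikzf2 was -0.43 ± 0.10 (adjusted p = 0.00991). Ikzf2 kept its call in 12 of 12 fits that left out 1 library. Il2ra kept it in 9 of 12, and its adjusted p reached 0.0616 at most without WT_se replicate 3, WT_DTH replicate 3 or KO_se replicate 1. With sex as a covariate the adjusted p of Il2ra was 0.0573, and Pdcd1 was called in its place at -0.48 ± 0.14 (adjusted p = 0.0321). Salivary content also differed between the groups, as given above. With 2 salivary components as covariates the averaged log2 fold changes were 0.52 ± 0.22 for Il2ra (adjusted p = 0.186) and -0.53 ± 0.17 for Ikzf2 (adjusted p = 0.0959), so neither kept its call. When each group gave up its library richest in salivary counts, they were 0.41 ± 0.16 (adjusted p = 0.120) and -0.36 ± 0.15 (adjusted p = 0.140).

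In wild type alone 1 of the 10 genes passed for challenge, where 18.7% of all tested genes passed. It was Ikzf2, with a log2 fold change of -0.47 ± 0.15 (adjusted p = 0.0407). The Ikzf2 values of WT_DTH and WT_se, given above, overlapped through WT_DTH replicate 3 and WT_se replicate 1. The call was lost in 7 of 12 fits without 1 library, with an adjusted p of up to 0.202. Those libraries were WT_se replicates 2 and 3, WT_DTH replicates 1 and 2, KO_se replicate 3 and KO_DTH replicates 1 and 3. Lag3 missed the threshold. It had 9.76, 10.9 and 13.5 CPM in WT_DTH, against 6.79, 9.21 and 7.72 CPM in WT_se libraries, with a log2 fold change of 0.53 ± 0.18 (adjusted p = 0.0557). Lag3 was 1 gene of the 10 whose WT_DTH and WT_se libraries did not overlap, and 35.5% of all tested genes had groups apart in either direction.

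In the knockout alone 0 of the 10 genes passed for challenge, where 9.67% of all tested genes passed. At an unadjusted p under 0.05 the edgeR test held 5 of them, beside 4828 of all 20034 tested genes. The DESeq2 Wald test called 1, Il2ra, beside 2952 of all 20034. The libraries were nonetheless apart for 5 of the 10 genes, beside 30.1% of all tested genes in either direction. Foxp3 and Il2ra were above every KO_se library in every KO_DTH library, and Ikzf2, Il10 and Pdcd1 were below. Foxp3 had a log2 fold change of 0.32 ± 0.12 (adjusted p = 0.109) and Il2ra of 0.56 ± 0.18 (adjusted p = 0.0721). A fit to the 6 knockout libraries alone called both, with adjusted p of 0.0306 for Foxp3 and 0.0224 for Il2ra. Pdcd1 had 10.2, 8.95 and 9.02 CPM in KO_DTH, against 10.7, 13.0 and 17.7 CPM in KO_se libraries. Its log2 fold change was -0.56 ± 0.21 (adjusted p = 0.117), and that of Il10 was -0.67 ± 0.25 (adjusted p = 0.125).

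**Figure D2:**
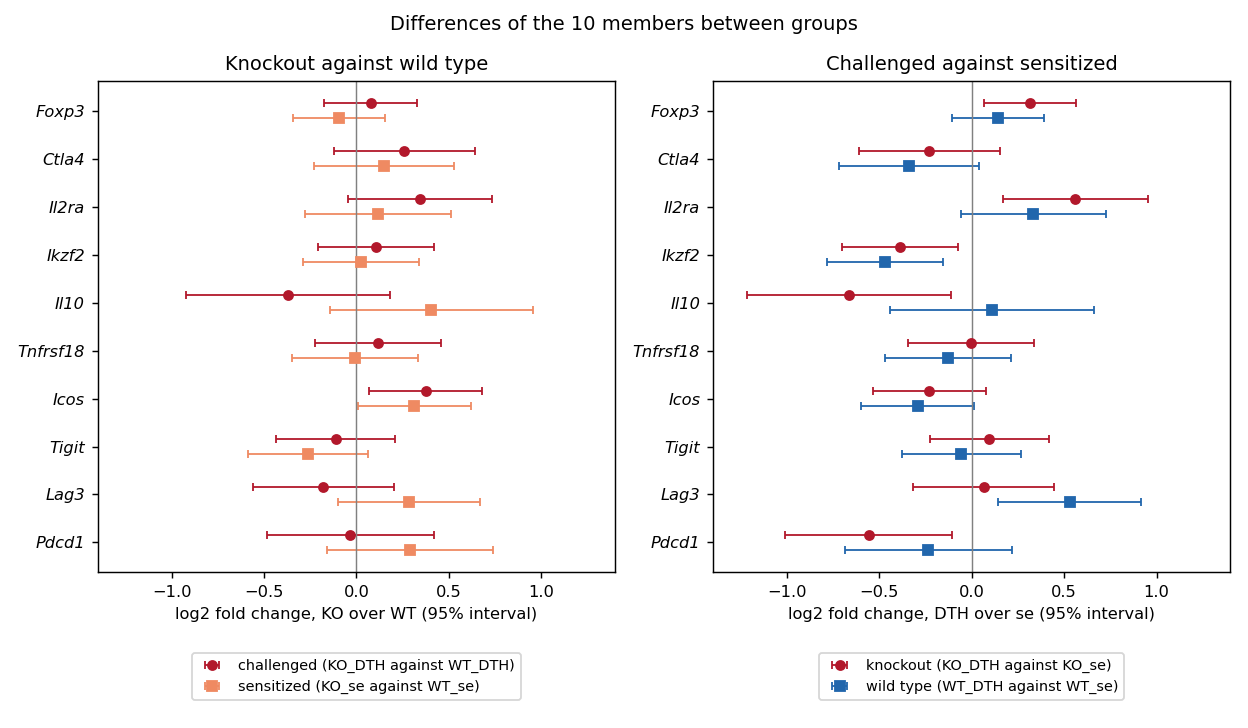
Log2 fold change (horizontal axes) with its 95% interval for each gene, left for knockout over wild type in challenged (circles) and sensitized nodes (squares), right for challenged over sensitized nodes in the knockout (circles) and the wild type (squares). Every genotype interval but those of Icos spans 0, and on the right Ikzf2 lies below 0 in both genotypes (-0.39 in the knockout and -0.47 in the wild type).

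A difference in the response to challenge between genotypes was not detectable for any of the 10 genes with 3 libraries a group. For this interaction 0 of 10 passed, where 2.11% of all tested genes passed. The edgeR test also held 0 of them at an unadjusted p under 0.05, beside 3215 of all 20034 tested genes. The DESeq2 Wald test called 0, beside 1238 of all 20034. The largest was Il10 at -0.78 ± 0.36 (adjusted p = 0.313), made of a log2 fold change of -0.67 ± 0.25 in the knockout and 0.11 ± 0.25 in the wild type. Lag3 followed at -0.46 ± 0.25 (adjusted p = 0.403). The intervals were wide, from -1.56 to 0.00 for Il10 and from -1.01 to 0.08 for Lag3.

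One library was the lowest of its group for the whole list. WT_DTH replicate 1 held the lowest value of its group for 10 of 10 genes and the lowest of all 12 libraries for 6 of 10. KO_DTH replicate 2 was lowest in its group for 8 of 10 genes and KO_se replicate 1 for 7 of 10. In WT_DTH replicate 1 the summed level of Cd3e, Cd3d, Cd3g and Cd247, the chains of the T cell receptor complex, was 333 CPM. It was 468 and 413 CPM in the other WT_DTH libraries. Without WT_DTH replicate 1, challenge in wild type called Il2ra at 0.55 ± 0.17 (adjusted p = 0.0483) and Lag3 at 0.67 ± 0.19 (adjusted p = 0.0395) and no longer Ikzf2. In the knockout the same fit called Il2ra at 0.55 ± 0.15 (adjusted p = 0.0401) and Il10 at -0.67 ± 0.19 (adjusted p = 0.0448). Averaged over genotypes it called Foxp3 at 0.30 ± 0.08 (adjusted p = 0.0177), which with all 12 libraries stood at 0.23 ± 0.08 (adjusted p = 0.0630).

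T cell genes took a smaller share of the RNA in challenged nodes. Of 12 T cell genes, 6 fell in KO_DTH against KO_se (median log2 fold change -0.43) and 11 fell in WT_DTH against WT_se (median -0.66). Of all tested genes 9.67% and 18.7% passed in either direction. The summed level of the 4 receptor complex genes was 446 ± 23.0 CPM in KO_DTH and 612 ± 79.1 CPM in KO_se, and 404 ± 67.9 CPM in WT_DTH and 630 ± 57.7 CPM in WT_se libraries (SD, n = 3 each). Fewer T cells, less RNA per T cell and more RNA from other cells cannot be told apart in bulk tissue. The share of counts from mitochondrial genes was lower in every WT_DTH library than in every WT_se library, and overlapped by state in the knockout, at 5.75 to 16.04% in KO_DTH, 4.53 to 6.02% in WT_DTH, 12.2 to 16.3% in KO_se and 14.0 to 19.4% in WT_se libraries. Erythroid genes took 0.14 to 0.48% of counts in KO_DTH, 0.23 to 0.26% in WT_DTH, 0.33 to 1.55% in KO_se and 0.65 to 1.32% in WT_se libraries. The part of these shares in the challenge results was not tested. The 10 genes were therefore also set against these 4 genes.

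Relative to the T cell receptor complex, Foxp3 was higher in challenged nodes of both genotypes. Foxp3 had 12.5, 12.5 and 11.7 counts per 100 receptor complex counts in KO_DTH, against 7.98, 7.32 and 6.39 in KO_se libraries. In wild type it had 13.3, 11.8 and 13.6 in WT_DTH, against 6.91, 8.08 and 7.24 in WT_se libraries. Challenged and sensitized libraries were far apart, while knockout and wild type overlapped within each state. Il2ra averaged 14.2 ± 1.06 in KO_DTH and 7.03 ± 0.74 in KO_se, and 12.3 ± 2.47 in WT_DTH and 6.24 ± 0.74 in WT_se libraries. Ikzf2 averaged 9.20 ± 0.31 in KO_DTH and 8.82 ± 1.33 in KO_se, and 9.49 ± 1.55 in WT_DTH and 8.40 ± 1.21 in WT_se libraries. Ikzf2 thus lay within the spread on this scale.

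When libraries were scaled to the 4 receptor complex genes in the test, 4 of the 10 genes were higher in KO_DTH than in KO_se, where 21.9% of all tested genes were higher. In WT_DTH against WT_se 7 of the 10 were higher, where 45.4% of all tested genes were higher. The 4 in the knockout were Foxp3 at 0.76 ± 0.13, Il2ra at 1.02 ± 0.16, Tigit at 0.53 ± 0.18 and Tnfrsf18 at 0.43 ± 0.14 on the log2 scale. The 7 in wild type were these 4, at 0.80 ± 0.13, 0.98 ± 0.16, 0.61 ± 0.18 and 0.50 ± 0.14, with Lag3 at 1.18 ± 0.19, Il10 at 0.73 ± 0.26 and Icos at 0.35 ± 0.13. This scaling moved the median of all tested genes by 0.44 in the knockout and 0.65 in the wild type, so much of each value is common to all genes. Set against that median, with no test, Foxp3 stood at 0.32 in the knockout and 0.15 in the wild type, and Il2ra at 0.58 and 0.33. Lag3 stood at 0.08 in the knockout, where its scaled value of 0.52 ± 0.19 was not called (adjusted p = 0.0611), and at 0.53 in the wild type. Tigit and Il10, where called, lay within 1 SE of the median of all genes. Icos, called in the wild type, stood below that median at -0.30, close to its unscaled value of -0.29. Tnfrsf18 stood at -0.01 in the knockout and -0.15 in the wild type. Ikzf2 had scaled values of 0.06 ± 0.16 in the knockout and 0.18 ± 0.16 in the wild type and was called in neither. Against the median of all genes it stood at -0.38 and -0.47, close to its unscaled values of -0.39 and -0.47. None of the 10 genes passed for genotype under this scaling.

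**Figure D3:**
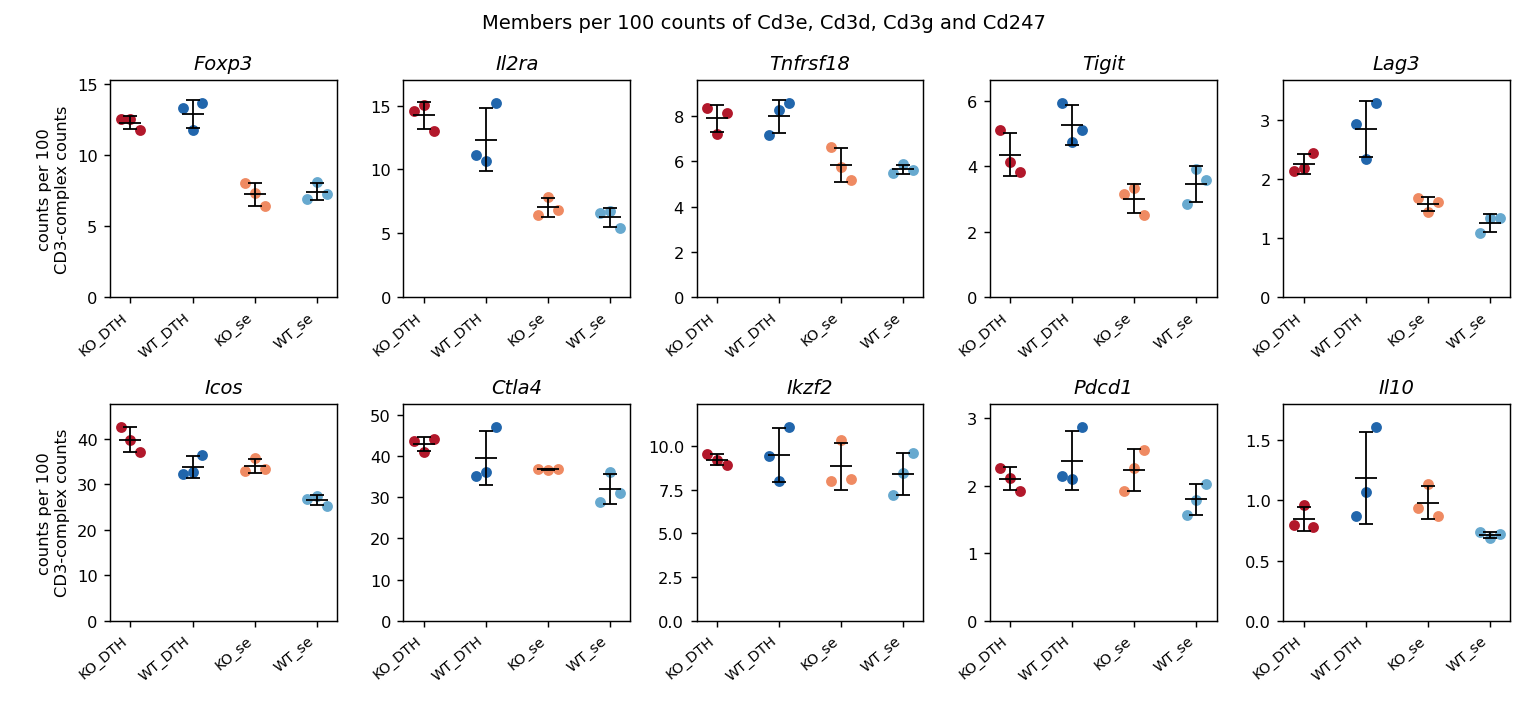
Counts of each gene per 100 summed counts of Cd3e, Cd3d, Cd3g and Cd247 (vertical axis, from 0) in the 12 libraries by group; points are libraries and bars the mean ± SD of 3 libraries. Foxp3 averages 12.2 in KO_DTH and 12.9 in WT_DTH libraries and 7.23 in KO_se and 7.41 in WT_se libraries.

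Because interleukin-2 signals through STAT5 at Foxp3 and Il2ra, the promoters of the 10 genes were searched for the palindrome TTCNNNGAA (N being any base), which STAT factors bind. The palindrome reads alike on both strands. RefSeq windows from 250 bases before to 50 after the gene start on GRCm38.p6 were at hand for 6 of the 10 genes, in 7 windows. TTCNNNGAA was in 2 of 7 windows, 1 of the pair for Foxp3 and that of Tnfrsf18, beside 8.30% of 32851 windows of all genes. The Foxp3 window is chrX:7580233-7580532 on the plus strand, that of Tnfrsf18 chr4:156026072-156026371 on the plus strand and that of Il2ra chr2:11642542-11642841 on the plus strand. The palindrome is in capitals, with its first base at -139 from the start in Foxp3 and -99 in Tnfrsf18. Il2ra, printed beside them as a gene that rose, has none, and neither have the windows of Tigit, Ctla4 and Pdcd1 or the other window of Foxp3.
Foxp3: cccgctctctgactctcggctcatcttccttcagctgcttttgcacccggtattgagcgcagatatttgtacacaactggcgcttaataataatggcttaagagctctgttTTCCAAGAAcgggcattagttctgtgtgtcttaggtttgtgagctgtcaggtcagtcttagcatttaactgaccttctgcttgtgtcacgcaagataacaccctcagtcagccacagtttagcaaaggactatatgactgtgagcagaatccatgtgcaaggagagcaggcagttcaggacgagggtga
Tnfrsf18: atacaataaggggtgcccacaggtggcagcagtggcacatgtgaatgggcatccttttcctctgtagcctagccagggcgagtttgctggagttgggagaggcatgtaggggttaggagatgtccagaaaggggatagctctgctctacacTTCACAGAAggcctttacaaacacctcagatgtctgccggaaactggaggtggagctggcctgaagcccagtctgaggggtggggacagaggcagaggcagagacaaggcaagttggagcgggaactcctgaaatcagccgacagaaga
Il2ra: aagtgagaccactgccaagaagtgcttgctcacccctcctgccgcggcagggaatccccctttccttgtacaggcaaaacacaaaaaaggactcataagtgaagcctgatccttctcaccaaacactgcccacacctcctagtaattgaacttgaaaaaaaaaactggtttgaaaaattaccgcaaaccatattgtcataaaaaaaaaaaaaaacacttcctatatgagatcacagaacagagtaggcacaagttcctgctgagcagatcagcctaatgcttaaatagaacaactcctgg
No match says only that these letters are absent from the window, and binding was not measured.

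Among 15 tested genes of interleukin-2 and interleukin-10 signalling, 7 rose in KO_DTH against KO_se (median log2 fold change 0.36), where 9.67% of all tested genes passed. In WT_DTH against WT_se 4 of them rose (median 0.20), where 18.7% of all tested genes passed, and none was lower in either genotype. With 2 salivary components as covariates 2 were called in each genotype. The transcription factor gene Stat3, which relays interleukin-10, rose by 0.86 ± 0.09 in the knockout and 1.03 ± 0.09 in the wild type on the log2 scale. Jak3, the kinase bound to the common gamma chain, rose by 0.79 ± 0.08 in the knockout and 0.81 ± 0.08 in the wild type. The receptor chain gene Il10ra rose by 0.46 ± 0.13 in the knockout and 0.90 ± 0.13 in the wild type, and the feedback inhibitor gene Socs1 by 0.60 ± 0.13 and 0.66 ± 0.13. Socs3, another feedback inhibitor gene, rose by 0.52 ± 0.07 in the knockout and stood at 0.20 ± 0.07 in the wild type (adjusted p = 0.0574). Stat5a, whose product relays interleukin-2, rose by 0.36 ± 0.07 in the knockout and stood at 0.22 ± 0.07 in the wild type (adjusted p = 0.0571). Between genotypes the sign was the other way in sensitized nodes, where 3 of 15 were lower in KO_se than in WT_se. Of all tested genes 5.17% passed there. Stat5a had 70.2, 68.3 and 69.3 CPM in KO_se, against 92.9, 92.8 and 93.4 CPM in WT_se libraries. All KO_se libraries lay below all WT_se libraries, and the log2 fold change was -0.43 ± 0.07 (adjusted p = 0.00744). Stat5b at -0.45 ± 0.09 and Socs3 at -0.28 ± 0.07 were the others. With 2 salivary components as covariates 0 of the 15 were called in KO_se against WT_se. In KO_DTH against WT_DTH 0 of the 15 passed, with 3 at an unadjusted p under 0.05 and 2 called by the Wald test. For the interaction 0 passed, with 2 at an unadjusted p under 0.05 and 1 called by the Wald test. Il2 itself, named here after its values were seen, was scarce, at 0.29 to 1.11 CPM in KO_DTH, 0.39 to 0.50 in WT_DTH, 0.41 to 0.71 in KO_se and 0.14 to 0.32 CPM in WT_se libraries.

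Some ligands of the checkpoint receptors rose with challenge. Of 13 ligand genes listed 11 were tested, and Tnfsf18 and Fgl1 did not pass the filter on low counts. Of the 11, 3 rose in KO_DTH against KO_se (median log2 fold change 0.47) and 8 rose in WT_DTH against WT_se (median 0.95), beside 9.67% and 18.7% of all tested genes that passed. With 2 salivary components as covariates 2 were called in the knockout and 0 in the wild type. Cd274, which encodes the PD-1 ligand PD-L1, had 196, 120 and 117 CPM in KO_DTH, against 42.9, 40.4 and 43.7 CPM in KO_se libraries. In wild type it had 174, 129 and 156 CPM in WT_DTH, against 48.7, 53.4 and 42.4 CPM in WT_se libraries. Every challenged library was above every sensitized library, with log2 fold changes of 1.77 ± 0.18 in the knockout (adjusted p = 7.9e-05) and 1.67 ± 0.18 in the wild type (adjusted p = 9.33e-05). Cd80 and Cd86, the ligands of CTLA-4 and CD28, rose by 1.5 ± 0.26 and 0.85 ± 0.16 in the knockout. In the wild type Cd80 rose by 1.71 ± 0.27, Cd86 by 1.30 ± 0.16, Lgals3, a galectin that binds LAG-3, by 1.51 ± 0.16 and H2-Ab1, a chain of MHC class II, by 0.95 ± 0.15. Pvr, the ligand of TIGIT, stood at 0.39 ± 0.11 in the knockout (adjusted p = 0.0505).

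A pair of genes for LAG-3 ligands differed by genotype before challenge. Lgals3 had 51.9, 46.8 and 41.6 CPM in KO_se, against 22.5, 28.0 and 24.6 CPM in WT_se libraries, with a log2 fold change of 0.90 ± 0.16 (adjusted p = 0.00762). H2-Aa, the other chain of the MHC class II protein H2-A, was higher in KO_se by 0.73 ± 0.13 (adjusted p = 0.00866). These were 2 of 11 ligand genes, where 5.17% of all tested genes passed. With 2 salivary components as covariates 0 of the 11 were called in this comparison. After challenge 0 of 11 passed in KO_DTH against WT_DTH, with 1 at an unadjusted p under 0.05 and 1 called by the Wald test. For the interaction these genes passed as well, Lgals3 at -1.09 ± 0.22 (adjusted p = 0.0325) and H2-Aa at -0.82 ± 0.19 (adjusted p = 0.0438). With the salivary covariates, and with scaling to the receptor complex, 0 of the 11 ligand genes passed for the interaction. Macrophages, dendritic cells and B cells carry these ligands. Of 8 B cell genes, 2 were higher in KO_se than in WT_se (median log2 fold change 0.57). In KO_DTH against KO_se 0 of them rose and 1 fell (median -0.18), and in WT_DTH against WT_se 6 rose and 0 fell (median 0.64). For the interaction 2 of the 8 were lower and 0 higher. Of all tested genes, 5.17%, 9.67%, 18.7% and 2.11% passed in these comparisons, in that order. Of 10 dendritic cell genes 0 passed in KO_se against WT_se. Of 9 monocyte and macrophage genes, 1 was higher in KO_se than in WT_se. With challenge 6 of the 9 rose in the knockout and 8 in the wild type. Their summed level was 1218 to 1540.0 CPM in KO_DTH, 1139.8 to 1950.3 CPM in WT_DTH, 624 to 844 CPM in KO_se and 464 to 595 CPM in WT_se libraries. The part of these cell types in the ligand result was not tested.

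**Figure D4:**
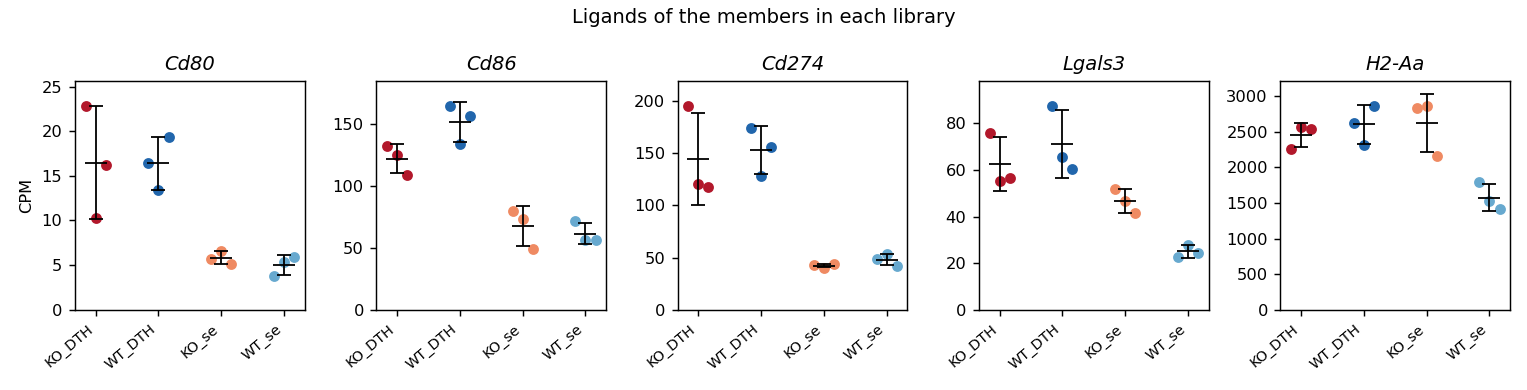
Level in CPM (vertical axis, from 0, its own scale in each panel) of 5 genes for ligands of the receptors in the 12 libraries by group; points are libraries and bars the mean ± SD of 3 libraries. Cd274 lies between 117 and 196 CPM in challenged libraries and between 40.4 and 53.4 CPM in sensitized ones, and Lgals3 is lowest in WT_se.

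Other genes linked to regulatory T cells moved in both directions. Of 24 tested, 2 rose and 4 fell in KO_DTH against KO_se (median log2 fold change 0.00), and 6 rose and 6 fell in WT_DTH against WT_se (median 0.05). Of all tested genes 9.67% and 18.7% passed in either direction. The granzyme gene Gzmb, which cytotoxic and NK cells also express, rose by 2.74 ± 0.37 in the knockout and 2.21 ± 0.36 in the wild type. Prdm1, which encodes Blimp-1 and is also a plasma cell gene, rose by 1.70 ± 0.25 in the wild type and stood at 0.80 ± 0.24 in the knockout (adjusted p = 0.0587). Genes of 4 surface molecules fell in both genotypes. The integrin gene Itgae was at -0.57 ± 0.13 in the knockout and -0.74 ± 0.14 in the wild type, and the integrin gene Itgb8 at -1.49 ± 0.33 and -1.51 ± 0.33. The ectoenzyme gene Nt5e was at -0.55 ± 0.12 in the knockout and -0.64 ± 0.12 in the wild type, and Nrp1, the gene of a semaphorin co-receptor, at -0.65 ± 0.14 and -0.63 ± 0.14. In sensitized nodes 4 of 24 were higher and 1 lower in KO_se than in WT_se, where 5.17% of all tested genes passed. With 2 salivary components as covariates 1 was higher and 1 lower there. The chemokine receptor gene Ccr4 had 10.9, 13.97 and 11.6 CPM in KO_se, against 3.48, 6.83 and 7.38 CPM in WT_se libraries (log2 fold change 1.04 ± 0.26, adjusted p = 0.0362). Areg, which encodes amphiregulin, was higher by 1.03 ± 0.25, Prdm1 by 0.95 ± 0.25 and Capg, an actin-capping protein gene, by 0.56 ± 0.08, while Tnfrsf1b, the gene of TNF receptor 2, was lower at -0.54 ± 0.10. In KO_DTH against WT_DTH 0 of 24 passed, with 3 at an unadjusted p under 0.05 and 0 called by the Wald test.

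Further genes listed as inhibitory receptors followed no single direction. The list also held 2 genes of other kinds, Tox, which encodes a nuclear factor, and the ectoenzyme gene Entpd1. Entpd1 was counted among the other regulatory T cell genes as well. Of 11 tested, 0 rose and 2 fell in KO_DTH against KO_se (median log2 fold change 0.04), and 3 rose and 3 fell in WT_DTH against WT_se (median -0.22). Of all tested genes 9.67% and 18.7% passed in either direction. Cd96, a receptor of NK and T cells that shares a ligand with TIGIT, fell in both genotypes, at -0.98 ± 0.15 in the knockout and -0.90 ± 0.14 in the wild type. Tox, a factor of exhausted T cells, was lower at -0.52 ± 0.11 in the knockout and -0.49 ± 0.11 in the wild type. Havcr2, which encodes TIM-3 and is also expressed by myeloid cells, was higher by 1.07 ± 0.19 in the wild type and stood at 0.55 ± 0.18 in the knockout (adjusted p = 0.0807). Between genotypes 1 of 11 passed before challenge, Btla, higher in KO_se by 0.46 ± 0.11 (adjusted p = 0.0369). With 2 salivary components as covariates 0 of the 11 were called there. After challenge 0 of 11 passed, with 0 at an unadjusted p under 0.05 and 0 called by the Wald test. Of all tested genes 5.17% passed before challenge and 0.599% after it.

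Listed genes linked to follicular helper T cells, which also express Icos and Pdcd1, stood as follows. Their summed level was 221 to 278 CPM in KO_DTH, 231 to 266 CPM in WT_DTH, 254 to 308 CPM in KO_se and 182 to 207 CPM in WT_se libraries. Of 9 genes, 2 were higher in KO_se than in WT_se, Cxcr5 at 0.60 ± 0.15 and Cxcl13 at 1.79 ± 0.47, where 5.17% of all tested genes passed. Neither gene is restricted to follicular helper T cells. Of 8 B cell genes 2 were also higher in KO_se (median log2 fold change 0.57), and the cells behind Cxcr5 and Cxcl13 were not identified. In KO_DTH against WT_DTH 0 of the 9 passed, with 2 at an unadjusted p under 0.05 and 1 called by the Wald test. The part of follicular helper T cells in the Icos and Pdcd1 levels was not tested.

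The counts of these lists moved with the scaling and with salivary content. Scaled to the 4 receptor complex genes, 10 of the 24 other regulatory T cell genes were higher and 1 lower in KO_DTH against KO_se. In WT_DTH against WT_se 12 were higher and 1 lower. Under this scaling 21.9% of all tested genes were higher in the knockout and 45.4% in the wild type, to be set beside each count on that scale. On that scale the inhibitory receptors had 4 higher and 1 lower in the knockout and 6 higher and 0 lower in the wild type, against the median shifts of all genes given above. Ligand genes higher with challenge numbered 8 of 11 in the knockout and 9 of 11 in the wild type, and those of interleukin-2 and interleukin-10 signalling 12 and 13 of 15. In KO_se against WT_se 2 salivary components as covariates left 0 ligand, 0 signalling and 0 inhibitory receptor genes called, and 1 regulatory T cell gene higher and 1 lower.

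**Figure D5:**
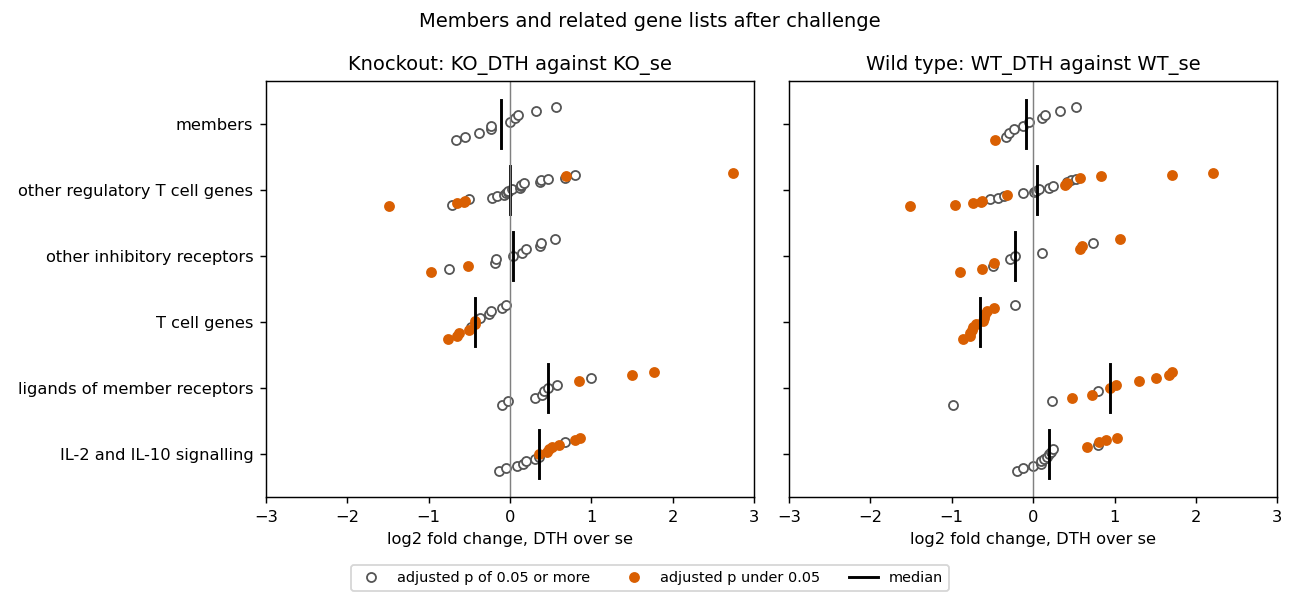
Log2 fold change of each tested gene, challenged over sensitized (horizontal axes), by gene list (rows), in the knockout (left) and the wild type (right); filled points have an adjusted p under 0.05 and black bars are list medians. T cell genes lie below 0 in both panels (medians -0.43 and -0.66), ligand genes mostly above 0 (medians 0.47 and 0.95), and the 10 genes near 0 (medians -0.12 and -0.09).

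The genes whose level most resembled that of 4 of the genes over the 12 libraries were listed by Pearson's r of log2 CPM, as a description with no test, since all libraries share scaling and the 4 groups. For Foxp3 they were Epsti1 (0.91), an interferon-induced gene, then Nars, Mrpl38, Snhg15 and Mllt11 (0.87). For Ctla4 they were Rida (0.95), Galk2, Pop5, Anxa3 and Pigx (0.92). For Lag3 they were Vcp-rs (0.85), Snapc2, Pmpca, Nfkbiz and Ebna1bp2 (0.84). For Pdcd1 they were Grik5 (0.96), Hdac2, Tiam1, Pigx and Mmd (0.89). None of the other 9 genes was among those listed.

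Some reads may be shared with neighbours, since the strand setting of the counting is not given in the sources used here. On GRCm38 the exons of Foxp3 share 853 bases with Flicr on the same strand and 590 bases with Ccdc22 on the opposite one. Flicr had 0.37 to 3.40 CPM and Ccdc22 11.3 to 19.0 CPM. Tnfrsf18 shares 414 bases with the opposite-strand gene Gm16008, at 1.61 to 3.59 CPM, and Ikzf2 shares 144 bases with the opposite-strand gene Gm29114, at 0.31 CPM or less.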

How the data were processed

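The deposited table held estimated counts, 1 row per gene, all of them whole numbers as the authors left them. Per the labels, total RNA was extracted with an RNeasy kit and made into directional NEBNext Ultra II libraries. Per the submitters' processing notes fastp 0.23.2, HISAT2 2.2.1 and StringTie 2.2.1 were used, with GRCm39. Symbols were matched for 51948 of 56941 IDs through a GRCm38 annotation, which also gave exon lengths, overlaps and 3′ untranslated regions; no GRCm39 coordinates are printed. CPM used TMM-scaled library sizes.

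All 20034 genes that passed filterByExpr with a minimum count of 10 were fitted together over the 12 libraries with edgeR 4.0.16 (R 4.3.3, quasi-likelihood test, 8 residual degrees of freedom), two-sided, with Benjamini-Hochberg adjustment over all of them and a threshold of 0.05. Errors of fold changes are SE of the model. The fit was tested on simulated data. Replicates of a group gave a chi-squared of 29.8 to 230 per degree of freedom when compared across genes, so none was a duplicate.

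Named are the 10 genes, up to 4 genes of each other list by smallest p in the comparison, and for 4 genes the 5 of highest r among tested genes with a mean of at least 50 counts and a symbol that is not Gm or Rik. H2-Aa, Ccr4 and other genes named at a second comparison come under the rule there. The genes, lists, tests and alternatives were chosen with earlier results of these data known. Alternatives were DESeq2 1.42.0 size factors and Wald test, other count filters, only the libraries compared, a replicate block, each library left out, salivary and sex covariates, the library of largest salivary share left out, and scaling to T cell genes. Scaling to 12 T cell genes was added after seeing the data.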

Additional observations from a re-analysis of the deposited data

Results flagged for a closer look

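The response of Lgals3 to challenge differed between the genotypes by the interaction term of the edgeR fit over all genes, with a log2 difference, knockout minus wild type, of -1.09 ± 0.22 (adjusted p = 0.0325). That of H2-Aa differed likewise, by a log2 difference of -0.82 ± 0.19 (adjusted p = 0.0438). With 2 salivary components as covariates, and with scaling to the T cell receptor complex genes, neither call was kept. Both genes encode ligands of LAG-3, and both had their lowest CPM in WT_se libraries. Flags were sought for the interaction in the 10 genes and in the related lists of ligands, interleukin-2 and interleukin-10 signalling, regulatory T cells and inhibitory receptors.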

How the results depend on the processing

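For genotype after challenge and for the interaction, 0 of the 10 genes were called under every alternative and every fit without 1 library. For KO_se against WT_se the count was 0 except 1 (Icos, adjusted p = 0.0486) with scaling to 12 T cell genes, and for genotype averaged over states 0 except 1 (Icos) in the DESeq2 Wald test. For challenge in wild type the count of 1 became 0 with no count filter, with salivary covariates, without the libraries of largest salivary share and with only the libraries compared, 2 in the Wald test, and 7 under either T cell scaling. For challenge in the knockout the count of 0 became 4 with scaling to the receptor complex, 2 with scaling to 12 T cell genes, 2 with only the libraries compared and 1 in the Wald test. For challenge averaged over genotypes the count of 2 became 0 under both salivary settings, 7 and 6 under the T cell scalings and 5 in the Wald test. Of all 20034 genes the Wald test called 4557 for challenge in wild type, 2952 in the knockout and 5118 averaged. Scaling to the receptor complex called 9786, 4466 and 9980 of them, in that order, and scaling to 12 T cell genes 9825, 3713 and 9686. With salivary covariates 93, 247 and 1511 were called. Fits without 1 library gave 0 to 2 for challenge in wild type, 0 to 2 in the knockout and 1 to 3 averaged. DESeq2 size factors and a mean of at least 50 counts left all 7 counts as they were.

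The challenge values of Ikzf2 became 0.18 and 0.16 in wild type and 0.12 and 0.0825 averaged under the T cell scalings. Those scalings moved the median of all genes to 0.65 and 0.63 in wild type and 0.52 and 0.48 averaged, against which Ikzf2 stayed lower, at -0.47, -0.47, -0.40 and -0.40. Correlations of same-numbered libraries were -0.10 to 0.14. They were not set against libraries of unlike number, so they do not decide whether the replicate number pairs the samples. A replicate block gave 2 calls for challenge in wild type, Ikzf2 and Lag3, and left the other 6 counts as they were.

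The printed 95% intervals are not adjusted for the number of genes tested. Some excluded 0 without a call, such as Icos in KO_DTH against WT_DTH at 0.07 to 0.68 (adjusted p = 0.241 in the edgeR test). With 3 libraries a group they therefore do not give the smallest log2 difference that could be called. What decided the calls lost or gained was otherwise not tested.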
